A study of Sus scrofa domesticus with 30 samples.

Results

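The LIF and interleukin-6 family was followed through 9 genes chosen by symbol: the cytokines LIF and IL6, the receptor chains LIFR, IL6R, IL6ST, IL11RA and OSMR, the transcription factor STAT3 and its feedback inhibitor SOCS3. Of these, 8 had an entry under that symbol among the 28224 gene models of the mRNA table, and all 8 were among the 16819 gene models that passed the filter on low values. LIFR was not analysed here. The samples were endometrium, the lining of the uterus, cut from mid-horn in crossbred gilts, young female pigs of Landrace, Yorkshire and Duroc background, on pregnancy day 13, after artificial insemination and at least 1 normal oestrous cycle. The gilts had been classed on the first day of life as low (n = 7) or high (n = 8) immunocrit (iCrit), which reads from blood how much immunoglobulin, and so colostrum, a newborn piglet has taken up, and the comparison asks whether adult pregnant endometrium differs with it. Immunocrit was measured and not imposed, the labels give no litter or sire, and the gilts were raised and mated under the same protocol. All 15 were pregnant because 1 low iCrit gilt that was not had been removed from the study.

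Most cytokines of this family share IL6ST, also called gp130, as the chain that signals into the cell. Each of these ligands also uses a more specific chain, such as IL6R for interleukin-6, IL11RA for interleukin-11, LIFR for LIF or OSMR for oncostatin M. The complex then activates Janus kinases, which phosphorylate STAT3. STAT3 induces SOCS3, which binds IL6ST and the kinases and shuts the signal down. In mice, uterine LIF is required for implantation and IL11RA for decidualization. In pigs, pregnancy day 13 falls in the period when the elongating conceptuses begin to attach to the uterine surface.

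Values are the authors' normalized expression values, which have a floor of 1 and no unit beyond their own scale. The depth estimated from the low values was 41.3 ± 13.2 M reads (M, 1e6) for low and 34.6 ± 5.23 M for high iCrit libraries (SD, n = 7 and 8, two-sided exact permutation p = 0.222). It ranged from 23.7 M in high iCrit replicate 7 to 63.5 M in low iCrit replicate 4. Some libraries stood apart. High iCrit replicate 7 held the highest value of 14.9% of all tested genes and low iCrit replicate 2 of 12.7%, against 2.95% to 9.89% in each other library, and high iCrit replicate 8 had the highest mean of the conceptus trophoblast markers, 1.72 above the average on the log2 scale. On the summed value of these markers high iCrit replicate 8 led by less, with 11038 against 10437 in low iCrit replicate 5, which ranked 13 of 15 on the mean. The members' main differences are given with and without the 3 libraries, high iCrit replicates 7 and 8 and low iCrit replicate 2. Of the epithelial markers that define an endometrial sample, 9 of 10 were detected in enough libraries to be tested, and KRT7 was listed at the floor throughout.

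None of the 8 members differed between low and high iCrit endometrium at a Benjamini-Hochberg adjusted p under 0.05, and neither did any of the 16819 genes tested (0% called, limma, lowest adjusted p = 0.672). At an unadjusted p under 0.05, 1 of the 8 members, OSMR, passed, while 1200 of all genes tested (7.13%) did, 2.71% of them all being higher and 4.43% lower in low iCrit gilts. LIF and OSMR had the highest low-to-high ratios of the family and IL11RA the lowest. The log2 difference was above 0 for 5 members and below 0 for 3, with a median of 0.07, while 48.3% of all genes tested were higher and their median was -0.01. Without the 3 libraries that stood apart, 2 members were higher and 6 lower, and their median was -0.09. The ranges of the groups overlapped for every member. In bulk tissue such as this, fewer cells of a type and less RNA per cell cannot be told apart.

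**Figure D1:**
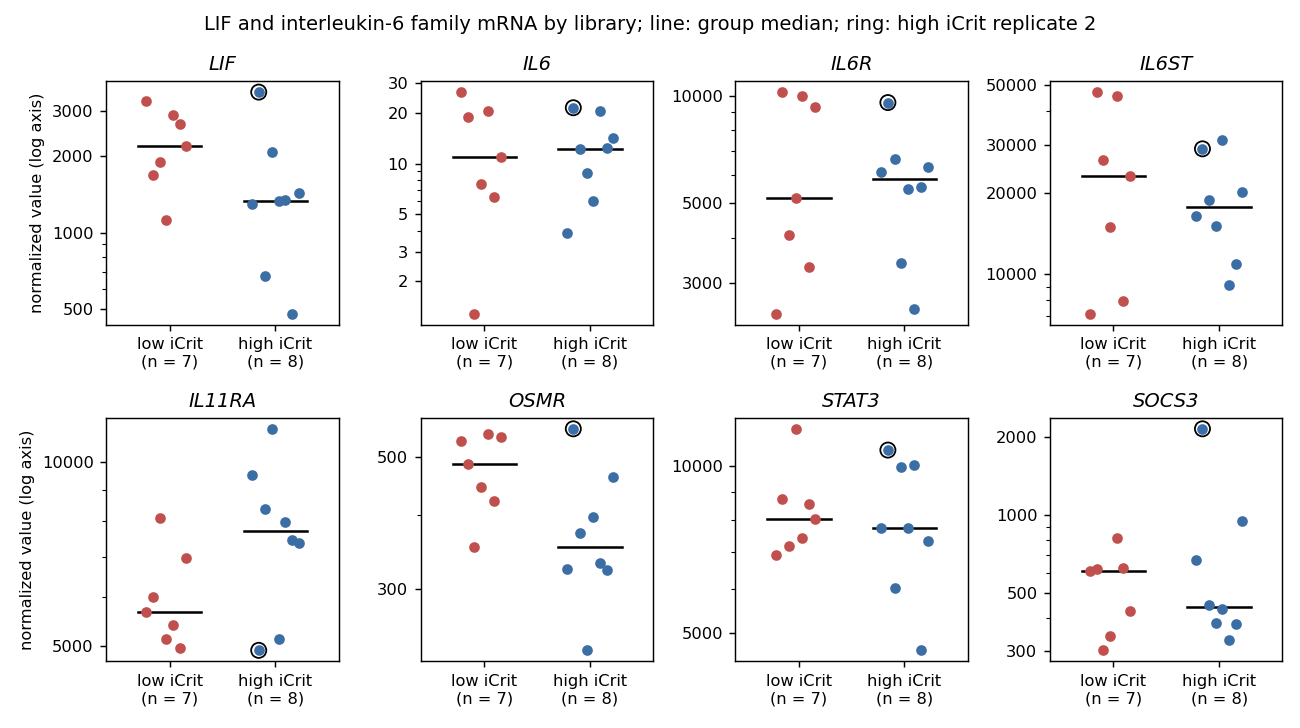
Normalized value (log axis) of each of the 8 family members in every library, with low iCrit gilts (n = 7) in red, high iCrit gilts (n = 8) in blue, a line at each group median and a ring around high iCrit replicate 2. LIF, IL6ST, OSMR, STAT3 and SOCS3 have the higher median in low iCrit gilts and IL6, IL6R and IL11RA the lower one, and every pair of groups overlaps.

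LIF lies on chromosome 14 (47221540 to 47239513, minus strand; all gene coordinates are in Sscrofa11.1). Its value ran from 1125 to 3269 in low iCrit gilts, with a median of 2187, and from 481 to 3557 in high iCrit gilts, with a median of 1334. In 6 of 7 low iCrit gilts LIF lay above the high iCrit mean, but the highest value of all belonged to a high iCrit gilt, replicate 2, and the lowest pair to high iCrit replicates 7 and 3. The means were 2242 ± 746 and 1523 ± 953 (SD, n = 7 and 8), and the log2 difference, low minus high, was 0.71 ± 0.35 (SE, 95% interval -0.02 to 1.45), a 1.64-fold higher level that did not pass (limma, unadjusted p = 0.0565, adjusted p = 0.704). Leaving out high iCrit replicate 2 gave a log2 difference of 0.92 (limma, unadjusted p = 0.0083, adjusted p = 0.545), and leaving out the 3 libraries that stood apart gave 0.56 (limma, unadjusted p = 0.134, adjusted p = 0.838).

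LIF was among the most variable genes of its abundance. The SD of its log2 value over the 15 gilts was 0.81, more than that of 95.6% of genes whose mean lay within 2-fold of its own, and its highest value was 7.39 times its lowest. OSM, which encodes the related ligand oncostatin M, is the next gene on the same strand, with a gap of 3253 bases and no gene model between. OSM stood at 41.6 ± 33.4 in the low and 30.2 ± 19.0 in the high group, which gives a log2 difference of 0.27 ± 0.65 (limma, adjusted p = 0.955) that turned to -0.05 without high iCrit replicate 5 and to -0.02 without low iCrit replicate 2.

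IL6, on chromosome 9 (91506421 to 91510830), encodes interleukin-6, a cytokine of inflammation and of the acute-phase response. Its value was 1.29 to 26.5 in low iCrit gilts, with a median of 10.9, and 3.85 to 21.4 in high iCrit gilts, with a median of 12.2. The low iCrit group held both the highest value, in replicate 1, and the lowest, in replicate 3. These values stand for an estimated 2 to 22 reads a library, an even number in all 15. The estimate took 1 read as the most common low value of a library divided by 2. Evenness was not particular to IL6: the OSMR estimates, 210 to 830, were even in every library as well, while SOCS3 had an odd one, 699 in high iCrit replicate 1. Whether IL6 was counted in units of 2 such reads was not tested. If it was, IL6 rests on fewer counts than this estimate gives. The values covered a 20.6-fold range, and the parts of counting error and of spread between gilts in that range were not separated. The log2 difference was -0.12 ± 0.49 (95% interval -1.16 to 0.92, limma, adjusted p = 0.975). It was 0.26 without low iCrit replicate 3 and -0.17 without the 3 libraries that stood apart.

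IL6R, the chain that binds interleukin-6 and also exists in a soluble form, lies on chromosome 4 (95322426 to 95381393). IL6R values were 2459 to 10228 in low iCrit gilts, with a median of 5184, and 2527 to 9563 in high iCrit gilts, with a median of 5834. The low iCrit gilts were widely spread: replicates 2, 5 and 7 ranked in places 1, 2 and 4 of the 15, and replicate 1 had the lowest value of all. The log2 difference was 0.06 ± 0.34 (95% interval -0.65 to 0.77, limma, adjusted p = 0.979).

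IL6ST, the shared signalling chain, lies on chromosome 16 (35101304 to 35151832). It ranged from 7149 to 47020.0 in low iCrit gilts, with a median of 23046, and from 9085 to 31329 in high iCrit gilts, with a median of 17631. Low iCrit replicates 2 and 5 exceeded every high iCrit gilt and low iCrit replicates 1 and 6 lay below every one, so the high iCrit range sat inside the low iCrit range. The log2 difference was 0.17 ± 0.41 (95% interval -0.70 to 1.04, limma, adjusted p = 0.956), and it turned to -0.12 without the 3 libraries that stood apart. IL6ST and IL6R were more variable than 95.3% and 93.3% of genes within 2-fold of their means, with log2 SDs of 0.85 and 0.69. A gene model on the opposite strand, LOC102168151, spans IL6ST and was at the floor in all 15 libraries. Whether reads were counted by strand is not stated.

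OSMR, on chromosome 16 (24041312 to 24101842), is the chain that pairs with IL6ST to bind oncostatin M. Its value was 353 to 546 in low iCrit gilts, with a median of 486, and 237 to 557 in high iCrit gilts, with a median of 352. All 7 low iCrit gilts lay above the high iCrit median, 4 high iCrit gilts lay below every low iCrit gilt, and high iCrit replicate 2 again had the highest value. Its means were 474.5 ± 72.0 and 375 ± 98.2 (SD, n = 7 and 8), a log2 difference of 0.36 ± 0.17 (95% interval 0.01 to 0.72) that did not pass over all genes (limma, unadjusted p = 0.0457, adjusted p = 0.6995). The unadjusted p was 0.0930 without high iCrit replicate 4, where the difference was 0.28, and 0.0696 without the 3 libraries that stood apart, where it was 0.38. The opposite-strand gene models LOC106506470 and LOC110257329, which overlap OSMR, were at the floor in all 15 libraries.

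IL11RA, the chain that binds interleukin-11, lies on chromosome 10 (32138984 to 32149315). It ran from 4958 to 8118 in low iCrit gilts, with a median of 5689, and from 4911 to 11360.3 in high iCrit gilts, with a median of 7720.5. In 6 of 7 low iCrit gilts IL11RA lay below the high iCrit mean, and 3 high iCrit gilts exceeded every low iCrit gilt, while high iCrit replicate 2 had the lowest value of all. The means were 6039.6 ± 1135 and 7766 ± 2134, and the log2 difference of -0.33 ± 0.17 (95% interval -0.70 to 0.03) did not pass (limma, unadjusted p = 0.0697, adjusted p = 0.724). It was -0.34 without the 3 libraries that stood apart (limma, unadjusted p = 0.126, adjusted p = 0.827). Without high iCrit replicate 4 it was -0.25 (limma, unadjusted p = 0.143, adjusted p = 0.818), and without high iCrit replicate 2 it was -0.42 (limma, unadjusted p = 0.0189, adjusted p = 0.554).

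Markers of other cell types were read beside these differences. In low iCrit gilts 8 of 9 stromal fibroblast markers had the higher mean log2 value (9 of 9 after quantile normalization), with a median log2 difference of 0.27 and a summed value of 199903 to 621090.3 against 171616 to 297960 in high iCrit gilts. The upper end belonged to low iCrit replicate 6 alone, and the next low iCrit gilt was at 301380.2, close to the top of the high iCrit range. Of the endothelial markers, 7 of 8 were higher, with a summed value of 24688 to 48103 against 21700.5 to 37008. Of the epithelial markers tested, 9 of 9 were lower (8 of 9 after quantile normalization or median centring), with a summed value of 99120.2 to 171814 against 125695 to 184497. Neutrophil and erythroid markers had the largest median log2 differences of the marker lists, -1.05 and -0.58, with 1 of 5 genes higher in each. Their summed values were 916 to 52189 and 902 to 3702 in low iCrit gilts, against 13763 to 73912 and 862 to 4921 in high iCrit gilts. Without the 3 libraries that stood apart these medians were -0.78 and -0.39. The neutrophil list did not follow the leukocyte list: low iCrit replicate 2 ranked 2 of 15 on the summed leukocyte markers (10576) and 15 on the neutrophil markers (916). Whether the neutrophil list reads neutrophil content in this tissue was not tested. No marker gene passed the adjusted threshold. Across the 15 gilts LIF had a Pearson's r of 0.17 with the mean of the stromal markers, OSMR of 0.22 and IL11RA of -0.37 (100000 permutations, adjusted p over 48 relations = 0.905, 0.809 and 0.486). Spearman's rho was 0.03, 0.26 and -0.31 (permutation, adjusted p = 0.995, 0.62 and 0.617). Other lists had larger r with the receptor chains: -0.61 for IL11RA with the endothelial markers, and -0.58 and -0.56 for OSMR with the epithelial and smooth muscle markers (100000 permutations, unadjusted p = 0.0159, 0.0233 and 0.0303, adjusted p = 0.106, 0.124 and 0.145). Spearman's rho for these was -0.54, -0.39 and -0.67 (permutation, adjusted p = 0.211, 0.489 and 0.179). None of the 48 relations passed after adjustment. The part of tissue composition in the differences of the family was not tested.

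STAT3, on chromosome 12 (20407316 to 20471091), is the transcription factor that the family activates, mainly by phosphorylation, which mRNA does not show. Its value was 6917 to 11691 in low iCrit gilts, with a median of 8030.2, and 4645 to 10699 in high iCrit gilts, with a median of 7729.9. The highest value stood alone in low iCrit replicate 4, and the lowest pair was in high iCrit replicates 7 and 3. Low iCrit replicate 4 was also the deepest library (63.5 M reads) and high iCrit replicate 7 the shallowest (23.7 M), and the part of depth in these values was not tested. With a log2 SD of 0.34 and a 2.52-fold range, STAT3 was among the steadier members, and its log2 difference was 0.09 ± 0.17 (95% interval -0.27 to 0.45, limma, adjusted p = 0.944). It turned to -0.06 without the 3 libraries that stood apart.

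SOCS3, the feedback inhibitor that STAT3 induces, lies on the same chromosome (3643832 to 3647015). Its value was 302 to 814 in low iCrit gilts, with a median of 610.0, and 330.4 to 2150 in high iCrit gilts, with a median of 442. One high iCrit gilt, replicate 2, had 2150 and the next highest library 952, so the high iCrit mean of 719 ± 614 lay far above its median. The log2 difference was -0.20 ± 0.36 (limma, adjusted p = 0.941). Without that gilt it was 0.07, and without the 3 libraries that stood apart it was -0.23.

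**Figure D2:**
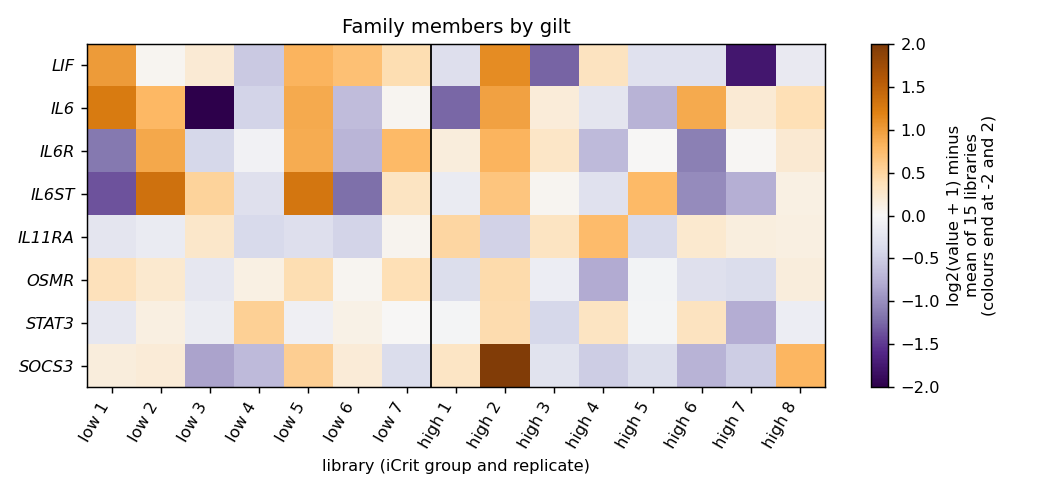
Each member's log2(value + 1) in each library minus its mean over the 15 libraries, by iCrit group and replicate, with colours ending at -2 and 2. High iCrit replicate 2 is high for every member except IL11RA, and low iCrit replicates 2 and 5 are high for IL6R and IL6ST.

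High iCrit replicate 2 ranked first of 15 for LIF, OSMR and SOCS3, in place 2 for IL6 and STAT3, 3 for IL6R, 4 for IL6ST and last for IL11RA. It held the highest value of 12 of the 75 other pathway genes tested (16%), against 4.91% of all genes tested. Among these were IL27 and EBI3, the subunits of interleukin-27, the kinase JAK3, and the STAT3 targets PIM1, BCL3, ICAM1 and IL4R. IL27 was at 49.4 in this gilt and at 21.4 in the next highest, and PIM1 at 513 and 359. The same gilt had the highest summed leukocyte markers of the 15, 13437, and the lowest summed stromal markers, 171616. Across the 15 gilts SOCS3 had a Pearson's r of 0.78 with the mean of the leukocyte markers (permutation p = 0.0015, adjusted over 48 relations p = 0.0715) and a Spearman's rho of 0.59 (permutation, adjusted p = 0.194), and neither passed after adjustment. That r was 0.46 without the 2 gilts farthest from the median of SOCS3, and 0.56 without the 2 farthest from the median of the markers. It was 0.33 within the low and 0.95 within the high iCrit gilts, and the difference between these was not tested. High iCrit replicate 2 was chosen for description after its values were seen, and the part of leukocyte content in its values was not tested further.

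Members were also compared with one another across the 15 gilts, on log2 values, in 28 pairs. IL6R and IL6ST were the pair with the highest r, 0.82 (100000 permutations, p = 0.00032, adjusted p = 0.00896), and a Spearman's rho of 0.80 (permutation, adjusted p = 0.019). Its r was 0.88 within the low and 0.70 within the high iCrit gilts, 0.77 to 0.87 when any 1 library was left out, and 0.71 without the 2 gilts farthest from the median of IL6R. Gilts with high IL6R thus tended to have high IL6ST in both groups, and low iCrit replicate 1 had the lowest value of both. Exceptions were high iCrit replicate 5, in place 9 for IL6R and 3 for IL6ST, and low iCrit replicate 3, in places 11 and 5. Both chains had a negative r with the mean of the neutrophil markers (-0.62 for IL6R and -0.65 for IL6ST) of the epithelial markers (-0.63 for each) and of the smooth muscle markers (-0.60 and -0.62), none of which passed over the 48 relations (100000 permutations, adjusted p = 0.106 for each). Spearman's rho was -0.70 and -0.59 with the neutrophil and -0.53 and -0.59 with the epithelial markers, and -0.57 and -0.59 with the smooth muscle markers (permutation, adjusted p = 0.179 to 0.211). For the neutrophil markers r was -0.82 and -0.86 within the low and -0.32 and -0.16 within the high iCrit gilts, and the difference between the groups was not tested. The part of these cell types in the correlation of IL6R with IL6ST was not tested. The permutation p compares with unrelated genes, and the share of all gene pairs with an r as large as 0.82 was not computed. Genes outside the family had a larger r with each chain, up to 0.96 for IL6ST (ANKS1A) and 0.92 for IL6R (STX3).

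IL11RA and OSMR ran in opposite directions, with r = -0.77 (100000 permutations, p = 0.00091, adjusted p = 0.0127), while Spearman's rho of -0.71 missed the threshold (permutation, adjusted p = 0.0518). The r was -0.82 within the high and -0.34 within the low iCrit gilts, and the difference between these was not tested. It was -0.61 without the 2 gilts farthest from the median of IL11RA, and -0.80 without the 3 libraries that stood apart. The r values given above, of IL11RA with endothelial markers (-0.61) and of OSMR with epithelial (-0.58) and smooth muscle markers (-0.56), stand beside this pair, and the part of these cell types in it was not tested. Genes outside the family again had a larger size of r, such as DRAM1 with IL11RA (-0.86) and GSTZ1 with OSMR (-0.91). No other pair of members passed. OSMR and SOCS3 had r = 0.56 (permutation, adjusted p = 0.252), and 0.76 after each group was centred on its own mean.

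**Figure D3:**
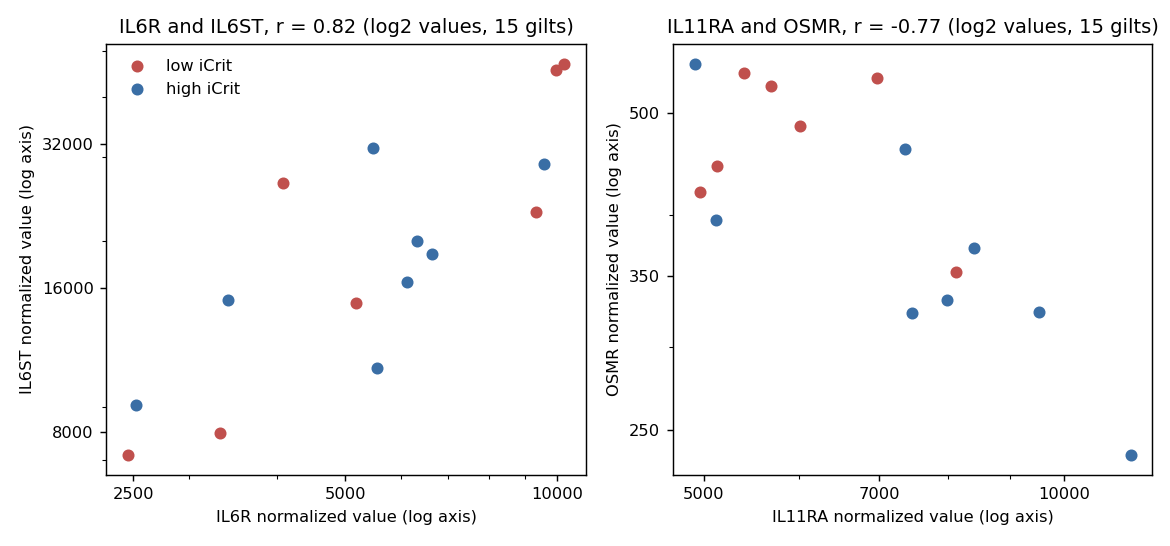
IL6ST against IL6R (left) and OSMR against IL11RA (right), as normalized values on log axes, 1 point per gilt, with low iCrit in red and high iCrit in blue. IL6R and IL6ST rise together across gilts of both groups (r = 0.82), and OSMR is lower where IL11RA is higher (r = -0.77).

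LIF and STAT3 had r = 0.50 over all gilts (100000 permutations, p = 0.0581, adjusted p = 0.252) and rho = 0.23 (permutation, adjusted p = 0.665). Within the groups the sign differed, with r = -0.82 in low and 0.91 in high iCrit gilts. In high iCrit gilts replicate 2 was highest and replicates 7 and 3 were lowest for both genes, and in low iCrit gilts replicate 4 had the highest STAT3 and the lowest LIF. The difference between the groups was not tested, and the pooled r was -0.17 without the 2 gilts farthest from the median of LIF.

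**Figure D4:**
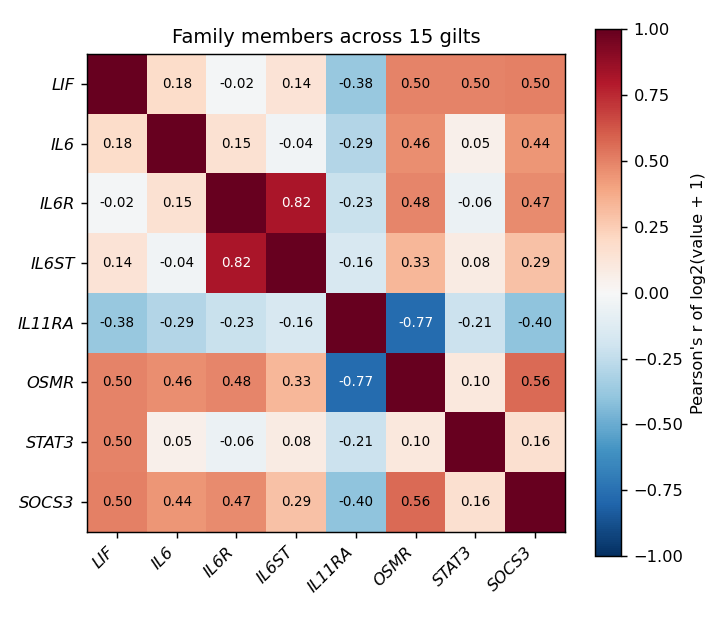
Pearson's r of log2(value + 1) for each of the 28 pairs of members over the 15 gilts, with colours from -1 to 1. IL6R with IL6ST (0.82) and IL11RA with OSMR (-0.77) have the largest sizes, and IL11RA has a negative r with every other member.

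The genes most like a member, over 15 libraries and among 12725 genes with a mean of at least 100, are given as a description. Each is the top of a search over that many genes, and whether its r exceeds what such a search gives by chance was not tested. For LIF these were PITPNB (r = 0.85), FGFR3 (0.83), STK10 (0.82), ARAP2 (0.79) and ITGB1 (0.79). For IL6, which rests on an estimated 2 to 22 reads a library, they were AK7 (0.78), FAM81B (0.72), TEKT1 (0.72), INPP5F (0.71) and DCUN1D3 (0.71). STAT3 was most like C2CD3 (0.86), VWA3B (0.84), HIVEP1 (0.82), LOC110259265 (0.82) and BRPF3 (0.82). SOCS3 was most like CHST7 (0.88), MS4A7 (0.86), ETS2 (0.85), SLC29A1 (0.85) and FCER1G (0.84). For the receptor chains, ranked after their values were seen, ANKS1A (0.96) and PAWR (0.92) were nearest to IL6ST, STX3 (0.92) and SMPDL3A (0.92) to IL6R, and STX3 had an r of 0.92 with IL6ST as well.

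The rest of the pathway was read from lists of ligands, receptors, signal carriers, inhibitors and targets, which hold 75 further tested genes. None was called over all genes, and 2 of 75 had an unadjusted p under 0.05, against 7.13% of all genes tested. Beside the counts of each list below, 48.3% of all genes tested were higher in low iCrit gilts. That count was 0 without low iCrit replicate 5, 1 without low iCrit replicate 2 or high iCrit replicates 4, 6 or 7, and 4 without low iCrit replicate 6. Of the other ligands and cofactors, 3 of 8 were higher in low iCrit gilts (median log2 difference -0.13), and the lowest p belonged to EBI3 (29.4 ± 13.4 against 42.7 ± 24.5, limma, adjusted p = 0.872). IL11, the ligand of IL11RA, was low, at 6.15 ± 4.54 against 7.61 ± 5.13 (limma, adjusted p = 0.927).

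Among the other receptors 1 of 3 was higher. CNTFR, the chain for ciliary neurotrophic factor, was at 93.3 ± 37.0 against 71.5 ± 36.7 (log2 difference 0.50 ± 0.37, limma, adjusted p = 0.819). IL27RA was at 1897 ± 605 against 2095 ± 517 (limma, adjusted p = 0.892). IL31RA, which lies 29936 bases from IL6ST, was at 90.5 ± 28.8 against 202 ± 259, with a highest value of 703 in a high iCrit gilt.

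Of the kinases, adaptors and other STATs, 11 of 15 were higher in low iCrit gilts, with a median log2 difference of 0.12. JAK2, a kinase bound to IL6ST, was at 1363 ± 159 against 1206 ± 218 (log2 difference 0.19 ± 0.12), above the high iCrit median in 7 of 7 low iCrit gilts, and did not pass (limma, unadjusted p = 0.126, adjusted p = 0.769). PTPN11, the phosphatase SHP2 that links IL6ST to the Ras pathway, and the kinase TYK2 had log2 differences of 0.20 ± 0.15 and 0.16 ± 0.12.

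Of the inhibitors, 10 of 14 were higher (11 of 14 after quantile normalization), with a median of 0.06. PTPN6, the phosphatase SHP1 that dampens Janus kinase signalling in leukocytes, was lower, at 1457 ± 228 against 1751 ± 227, in 6 of 7 low iCrit gilts below the high iCrit mean, without passing over all genes (log2 difference -0.27 ± 0.11, limma, unadjusted p = 0.0286, adjusted p = 0.672). PIAS2 and SOCS5 had log2 differences of 0.14 ± 0.08 and 0.16 ± 0.10 (limma, adjusted p = 0.765 and 0.767).

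Known STAT3 targets were lower in 17 of 25 (16 of 25 after quantile normalization or median centring), with a median of -0.13, and in 13 of 25, with a median of -0.01, without the 3 libraries that stood apart. Of all genes tested, 8688 of 16819 were lower. TIMP1, an inhibitor of matrix metalloproteinases, had means of 1232 ± 747 in the low and 1860.0 ± 650.4 in the high group, and 5 of 7 low iCrit gilts lay below every high iCrit gilt (log2 difference -0.69 ± 0.31, limma, unadjusted p = 0.0371, adjusted p = 0.688). CCND1, which encodes cyclin D1, was at 2228 ± 496 against 1724 ± 581, and the transcriptional repressor BCL6 at 2495 ± 226 against 2106 ± 505, and for each gene all 7 low iCrit gilts exceeded the high iCrit mean (limma, adjusted p = 0.704 and 0.719).

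Genes known as uterine LIF targets in mice were lower in 9 of 10, with a median of -0.19, and in 8 of 10 without the 3 libraries that stood apart. Of all genes tested, 8688 of 16819 were lower. Among the 9 were PTGS2 and IHH, with log2 differences small beside their SE (-0.03 ± 0.43 and -0.06 ± 0.48), and AREG, with low medians of 4.82 and 7.90. The count was not split by the direction in which LIF acts on each gene. The transcription factor MSX1 was at 4165 ± 873 against 5207 ± 1210.0 (limma, adjusted p = 0.7499), and the epidermal growth factor family ligands HBEGF and EREG were at 225 ± 112 against 324 ± 233 and 347 ± 93.5 against 416 ± 133 (limma, adjusted p = 0.849 and 0.861).

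**Figure D5:**
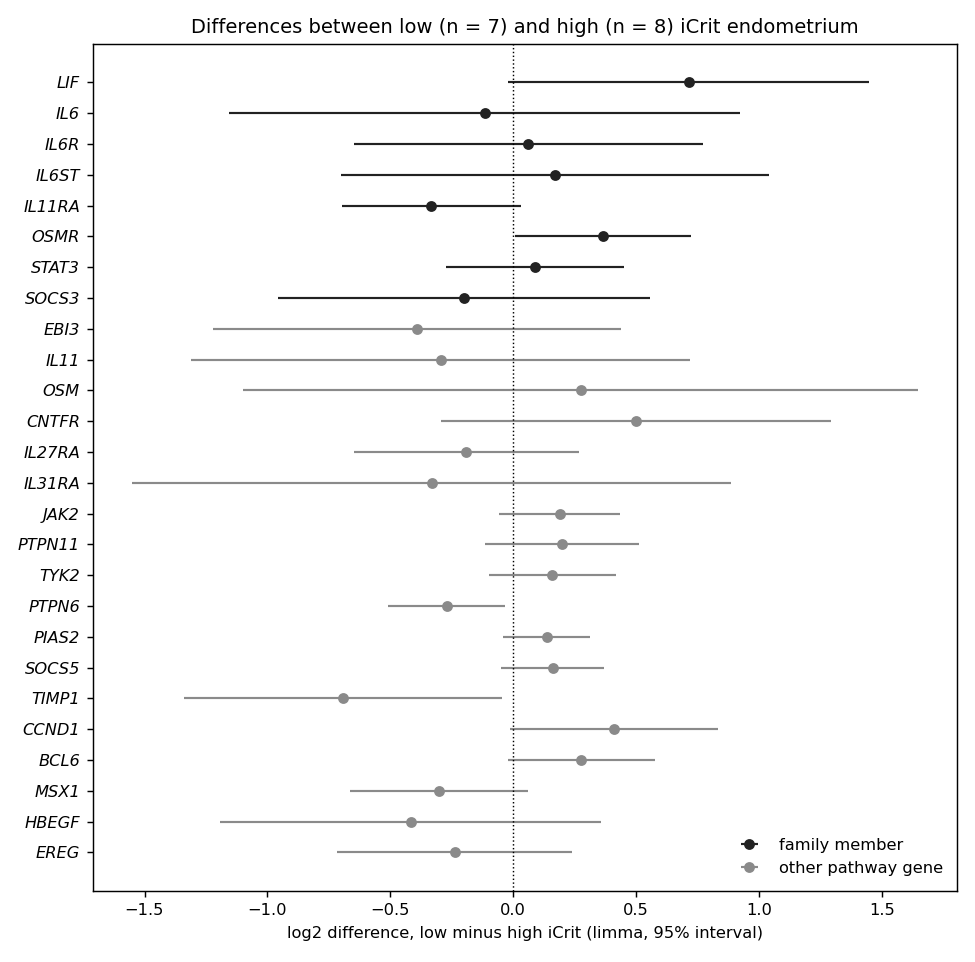
Log2 difference, low minus high iCrit, with its 95% interval from limma, for the 8 family members (black) and the named genes of the other pathway lists (grey). The intervals of OSMR, PTPN6 and TIMP1 leave out 0 before adjustment, and no gene passed after it.

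The small-RNA libraries of the same 15 gilts gave values for 8 loci of 5 miRNAs tied to the pathway in human cells or mice. None of them, and none of the 302 loci tested, was called (0%, limma, lowest adjusted p = 0.392), while 21 loci (6.95%) had an unadjusted p under 0.05. miR-21, which STAT3 induces in human cells, had means of 1465918 ± 261910.2 in the low and 1355911 ± 186807 in the high group (log2 difference 0.10 ± 0.12, limma, adjusted p = 0.794), and its difference turned to -0.07 after quantile normalization. The log2 differences of let-7a, which targets IL6 in human cells, miR-181a and miR-181b, which target LIF in mice, and miR-155-5p, which targets SOCS1 in mice, lay between -0.08 and 0.06. Their signs also turned under at least 1 scaling. Quantile normalization moved the median of all loci from -0.07 to -5.9e-05. Of 6 miRNA and mRNA pairs none passed: r was 0.24 for miR-21 with STAT3, -0.05 for miR-21 with SOCS3, -0.31 for let-7a with IL6, -0.10 for miR-181a with LIF, -0.19 for miR-181b with LIF and 0.46 for miR-155-5p with SOCS1 (100000 permutations, adjusted p = 0.549 to 0.857). Spearman's rho in the same order was 0.26, -0.21, -0.34, 0.17, 0.10 and 0.43 (permutation, adjusted p = 0.637 to 0.733).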

How the data were processed

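Poly(A) mRNA and small RNA of endometrium from 15 gilts were sequenced on an Illumina HiSeq, per the labels' protocols, and libraries were grouped by the immunocrit label. Each gilt gave 1 library of each kind, and replicate numbers, given in record order, serve as names. For each assay the authors deposited a table of normalized signal, on a linear scale with a lowest value of 1. Aligner, counter and scaling were not given in the sources used here, so it is unknown how reads shared by several genes or miRNA loci were assigned. No per-sample column was left unmapped (0). For 27579 gene models (97.7%) the coordinates were those of a RefSeq gene in Sscrofa11.1.

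Values above the floor in at least 7 libraries (16819 of 28224 gene models, 302 of 420 miRNA loci) were transformed to log2(value + 1), which makes changes of low genes look smaller. The contrast of low minus high iCrit was fitted with limma-trend (limma 3.58.1, R 4.3.3) and no covariate, with Benjamini-Hochberg adjustment over all features and a threshold of 0.05. The script was tested on simulated data. Depth was estimated from the low values, of which 91.6% to 94.0% were whole multiples of a library's step (tolerance 0.05, 10% by chance). Because many values were not whole, no count model was fitted. Correlations used 100000 permutations (scipy 1.17.1). Tables were made with pandas 2.3.3 and numpy 2.4.6 in Python 3.11.15, and figures with matplotlib 3.10.9.

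The members and lists were chosen with earlier results of these data known. The text names all members, in each pathway list any gene called and otherwise up to 3 with the smallest unadjusted p, and for LIF, IL6, STAT3 and SOCS3 the 5 genes with the highest r. Further genes named for high iCrit replicate 2, the nearest genes of IL6R and IL6ST, and IL11 as a ligand were outside this choice or picked after their values were seen. Alternatives were another pseudocount (16), filters, scalings, library quality weights and leaving out each library. The setting without 3 libraries was added after seeing the data. CTF1, SERPINA3, PAG2 and IL1B2 were not analysed here, and LBP, NNMT, MPO and CDX2 were too low to test.

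The other marker lists gave these counts of genes higher in low iCrit gilts: smooth muscle 0 of 6, leukocyte 5 of 10, neutrophil 1 of 5, erythroid 1 of 5 and conceptus trophoblast 1 of 7. Their median log2 differences in the same order were -0.22, -0.03, -1.05, -0.58 and -0.20.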

Additional observations from a re-analysis of the deposited data

Results flagged for a closer look

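On the untransformed values of 16 groups (8 member genes in 2 iCrit groups), 2 held a gilt far from the others of its group, where chance gives about 1 in 20 groups if values are normally distributed. STAT3 was at 11690.9 in low iCrit replicate 4, and the other low iCrit gilts lay at 8720 or lower. SOCS3 was at 2149.6 in high iCrit replicate 2, and the next high iCrit gilt was at 952. On log2(value + 1), the scale of the other tests, 0 of the 16 groups did: the gap to the next gilt over the group's range was 0.559 for STAT3 and 0.435 for SOCS3, against limits of 0.568 and 0.526.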

How the results depend on the processing

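No gene, family member or miRNA locus was called under any alternative run (0 in each). No paired analysis was possible because the gilts of the groups are different animals and the labels give them no shared replicate numbers. Pathway genes at an unadjusted p under 0.05 numbered 4 with library quality weights and 0 to 4 when 1 library was left out, against 2. Differences within a fraction of their SE turned sign, and the cause was not tested. With a pseudocount of 16 IL6 was at 0.0077. IL6R was at -0.013 with quality weights. Without the 3 libraries that stood apart IL6R was at -0.033, IL6ST at -0.12 and STAT3 at -0.063. Leaving out 1 library gave -0.34 to 0.26 for IL6, -0.091 to 0.26 for IL6R, -0.040 to 0.41 for IL6ST, -0.018 to 0.15 for STAT3, -0.32 to 0.070 for SOCS3, -0.052 to 0.74 for OSM and -0.56 to 0.051 for IL31RA. LIF (0.51 to 0.92), OSMR (0.28 to 0.45) and IL11RA (-0.42 to -0.25) kept their sign in every such fit. After quantile normalization miR-21 was at -0.068, let-7a at -0.0040 and -0.029, miR-181a at 0.039 at both loci, miR-181b at 0.014 and 0.020 and miR-155-5p at 0.070. After median centring miR-181a was at 0.059 at both loci, miR-181b at 0.0037 and 0.0041 and miR-155-5p at 0.069. Leaving out 1 library gave -0.079 to 0.044 for both miR-181a loci and -0.080 to 0.060 for miR-155-5p. IL6 rests on few reads, an estimated 2 to 22 a library.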
